A study of Rattus norvegicus with 42 samples.

Results

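The genes described here are those whose proteins hold epithelial cells together or give them their shape: claudins, other tight junction proteins, polarity proteins, desmosome proteins, keratins, connexins and nectins. They were taken by gene symbol from the probe annotation of the array, and 79 of the 14218 genes with a probe set of their own met the rule. The 79 comprised 23 keratins, 16 claudins, 12 desmosome genes, 10 connexins, 8 other tight junction genes, 6 polarity genes and 4 nectins. Each gene was read from 1 probe set, the one with the highest mean over all arrays. The rule itself uses the gene symbol and the mean signal, but it was set with earlier results of these data known.

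The study asked how rat kidney precursor tissue responds to 3 inducers over a week of culture. Metanephric mesenchyme is the embryonic tissue that forms the nephrons, the filtering tubules of the kidney. It was taken from E13.5 rat embryos and freed of the ureteric bud with fine pins after trypsin and DNase, so the absence of bud cells rests on that dissection. Of the 42 arrays (Affymetrix whole-genome rat arrays), 12 came from cultures with LIF (leukemia inhibitory factor, a cytokine), 12 from cultures with NGAL (neutrophil gelatinase-associated lipocalin, an iron-binding secreted protein) and 12 from cultures with a fraction called ANX, with 2 labelled biological replicates on each of days 1, 2, 3, 4, 5 and 7. The remaining arrays were 2 of uninduced culture on day 1, 2 of uninduced culture on day 2 and 2 of freshly dissected tissue. Every cultured group, the uninduced one included, was grown on collagen-coated transwell filters in DMEM/F12 with insulin, transferrin, selenium, dexamethasone, prostaglandin, T3, recombinant FGF and a recombinant TGF. The contents of the ANX fraction are not given in the sources used here. Uninduced cultures exist for days 1 and 2, so from day 3 the inducer and the time in culture cannot be told apart.

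Mesenchymal cells of the metanephros become epithelial as they form nephrons: they gather into vesicles, gain an apical and a basal side and seal to their neighbours. Claudins are membrane proteins that form the tight junction strands and set which ions pass between cells, while cingulin and the zonula occludens proteins lie on their cytoplasmic face. Desmosomes join the keratin filaments of neighbouring cells through the cadherins desmoglein and desmocollin and the linker proteins plakoglobin, plakophilin and desmoplakin. Crumbs and Par proteins mark the apical side, connexins form gap junction channels, and nectins start cell contacts. Several members also serve other cells: claudin-5 and connexin-37 and connexin-40 are known from endothelium, and connexin-43 is abundant in many mesenchymes.

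All values are log2 of the deposited intensities. Genes with at least 1 group mean over 5.79 were tested, a level that 40% of all values fall under. This threshold is a choice on signal and not a detection call. Of the 79 genes 55 were tested (15 keratins, 10 claudins, 10 desmosome genes, 6 other tight junction genes, 6 polarity genes, 4 connexins and 4 nectins), and 31 stood above the threshold in all 21 groups. The other 24 of the 55 were below it in at least 1 group and could enter through a group where they were high, so counts over the tested genes describe them and support nothing beyond that. Differences were tested with limma over all 11388 genes that passed, and a gene is called where its Benjamini-Hochberg adjusted p is below 0.05. Fewer cells of a type and less RNA per cell cannot be told apart in these bulk samples.

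The fresh tissue carried markers of metanephric mesenchyme: Eya1, a regulator of nephron progenitors, had 11.13 and 10.97, and the zinc finger gene Sall1 had 11.04 and 10.91. Array medians were alike, between intensities of 83.3 and 88.4. The 2 LIF arrays of day 7 differed more from each other than any other pair (SD of the difference over genes 0.596), followed by the 2 ANX arrays of day 3 (0.571). On day 7, 13 of the 79 genes were higher by over 1 in replicate 2 than in replicate 1 under LIF, 14 under NGAL and 7 under ANX, against 5.16%, 3.01% and 2.0% of all 14218 genes. E-cadherin (Cdh1), the adherens junction protein that defines epithelia, had 4.74 and 8.72 under LIF on day 7, 6.75 and 8.15 under NGAL and 8.54 and 8.59 under ANX, against 4.05 and 4.15 in fresh tissue. Replicate 2 of day 7 also had the higher log2 ratio of 3' to 5' signal for the spiked-in dap transcript, which reports how evenly labelling ran along RNA, with values of 2.15 under LIF, 2.18 under NGAL and 2.11 under ANX, against 1.68, 1.42 and 1.23 in replicate 1. The part of this ratio in the day 7 values was not tested directly, and counts with it as a covariate were 9 called genes under LIF, 15 under NGAL and 21 under ANX for the change over time described below.

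In culture without an inducer the 2 claudins Cldn11 and Cldn12 rose. On day 1 of uninduced culture 3 of the 55 were called against fresh tissue, all higher (5.45%, beside 6.06% of all genes tested, so at the background), and on day 2 there were 4 (7.27%, beside 22.2%). Since 24 of the 55 were below the threshold in at least 1 group, these shares are a description only. Claudin-11 (Cldn11), the strand protein of myelin and of Sertoli cells, had 11.22 and 11.13 on day 1 and 11.98 and 11.86 on day 2 of uninduced culture, against 9.0 and 9.05 in fresh tissue. All 4 cultured arrays lay above both fresh arrays, and the rise amounted to 2.15 (SE 0.31, adjusted p = 9.24e-05) on day 1 and 2.90 (SE 0.31, adjusted p = 9.55e-07) on day 2. Claudin-12 (Cldn12) also rose, with 10.31, 9.96, 10.12 and 10.12 over the 2 days of uninduced culture, against 9.28 and 9.17 in fresh tissue, or 0.92 (adjusted p = 0.000686) on day 1 and 0.90 (adjusted p = 0.000286) on day 2. Connexin-37 (Gja4) was higher on day 1 by 1.04 (adjusted p = 0.0184), a call lost in 3 of 4 fits with an array removed. On day 2 connexin-45 (Gjc1) fell by 0.46 (adjusted p = 0.0434) and keratin 20 (Krt20) by 0.39 (adjusted p = 0.0499), and both calls were lost when single arrays were left out. No desmosome, nectin, polarity or other tight junction gene was called by limma in either comparison, and 2 desmosome genes had an unadjusted p under 0.05 on each day.

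Over the week more of the genes lay above the uninduced level. On day 7, both ANX arrays lay above all 6 fresh and uninduced arrays for 32 of the 79 genes, or 40.5%, beside 11.2% of all 14218 genes. Both LIF arrays did so for 27 genes (34.2%, beside 10.6%) and both NGAL arrays for 14 (17.7%, beside 10.9%). Of these genes, 25 under ANX, 23 under LIF and 13 under NGAL were among the 55 tested. The others had no group mean above the threshold, so their order is not firm. The courses to that point differed. LIF already had 13 genes above on day 1 and 22 on day 2 (16.5% and 27.8%, beside 10.7% and 9.21% of all genes), and ANX had 17 and 13 (21.5% and 16.5%, beside 11.2% and 9.09%). NGAL had 6 on day 1 and 2 on day 2 (7.59% and 2.53%, beside 4.45% and 2.47%), and reached 19 on day 5 (24.1%, beside 8.36%). These are counts against 6 shared arrays, with no test.

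**Figure D1:**
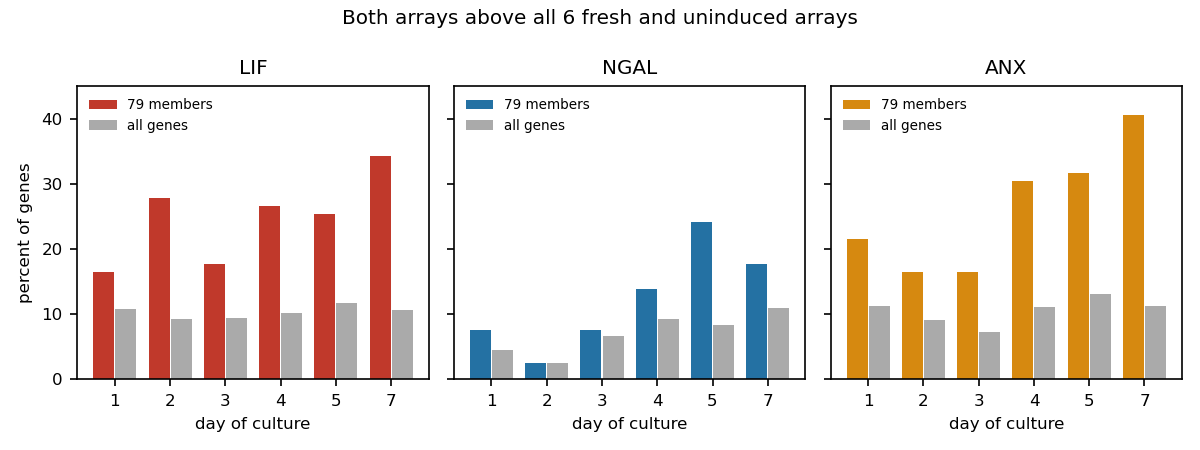
Percent of genes (y axis) whose 2 arrays of a day both lay above all 6 fresh and uninduced arrays, by day of culture (x axis), for the 79 junction and keratin genes beside all 14218 genes, in a panel per inducer. The share of the 79 genes ended at 34.2% under LIF, 17.7% under NGAL and 40.5% under ANX on day 7, while that of all genes stayed between 2.47% and 13.1%. Genes below the threshold in all groups are counted too.

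Against uninduced culture of the same days (days 1 and 2 together), 14 of the 55 tested genes were called under LIF, 8 higher and 6 lower, beside 24.0% of all genes tested, so the share of 25.5% was near the background. Under ANX 10 were called, 8 higher and 2 lower, beside 20.3%. Under NGAL limma called 0 of the 55 and 0 of 11388 genes (0.0%), with 5 of the 55 at an unadjusted p under 0.05 and 0 called in every alternative setting. The 3 comparisons share the 4 uninduced arrays. The median difference over the 55 was 0.18 under LIF, 0.11 under NGAL and 0.10 under ANX, beside 0.03, 0.01 and 0.03 over all genes tested.

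Between the early days (1 and 2) and the late days (5 and 7) of the same inducer, 6 of the 55 were called under LIF, 5 higher and 1 lower, beside 9.09% of all genes tested. Under NGAL there were 13, 11 higher and 2 lower (23.6%, beside 12.0%), and under ANX 18, 15 higher and 3 lower (32.7%, beside 15.9%). Counting rises alone, the background was 4.22% under LIF, 6.23% under NGAL and 8.06% under ANX. Leaving out replicate 1 of day 7 under LIF gave 11 calls in place of 6, 10 of them higher, and leaving out replicate 2 gave 8. With the replicate number as a separate block on each day, chosen after seeing the data, the counts were 14 under LIF, 16 under NGAL and 19 under ANX. Claudin-1 (Cldn1), claudin-3 (Cldn3) and periplakin (Ppl) were called higher late under all 3 inducers.

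**Figure D2:**
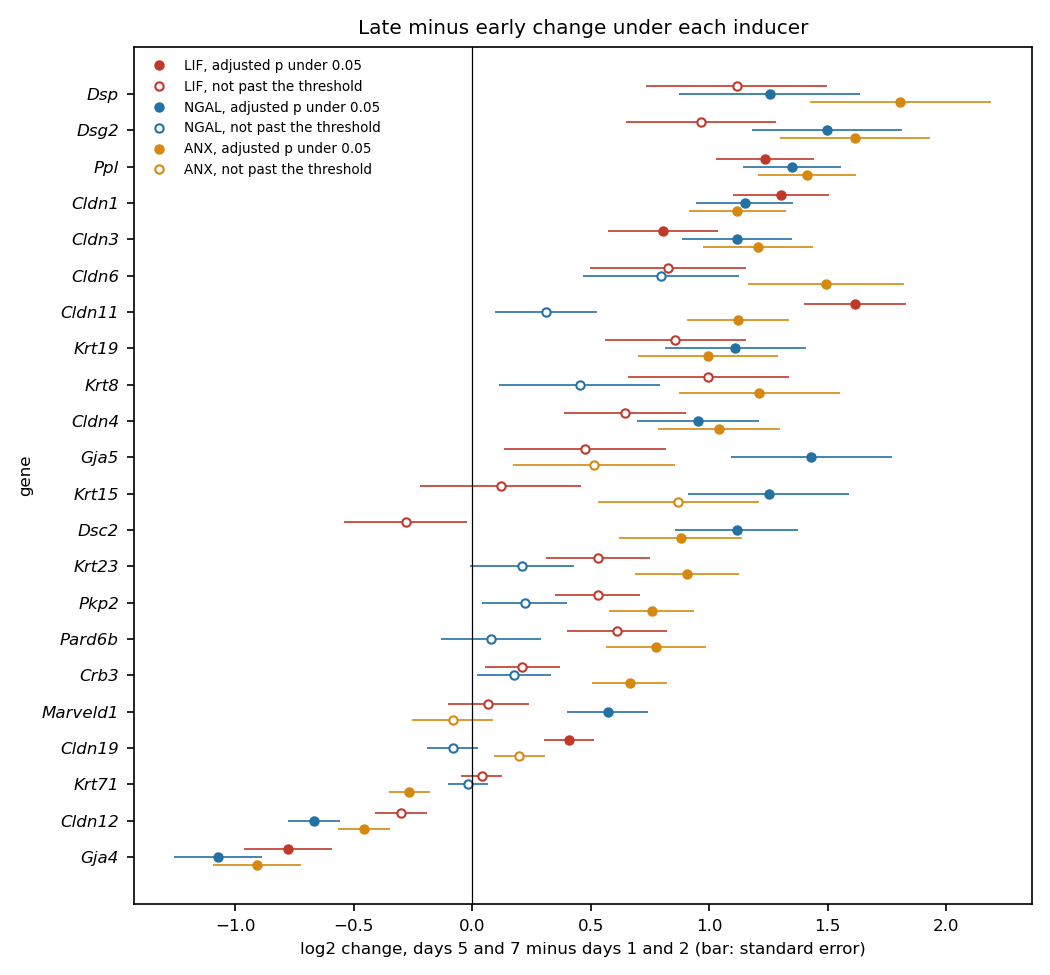
Log2 change (x axis) from days 1 and 2 to days 5 and 7 under each inducer for the members named for this comparison (y axis), with bars for the standard error and filled points where the adjusted p was below 0.05. Ppl, Cldn1 and Cldn3 are filled under LIF, NGAL and ANX, while Dsp is filled under NGAL and ANX.

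Of the 10 tested desmosome genes, Dsc2 and Dsg2 were called higher on days 1 and 2 under LIF and under ANX (20.0% each, near the background above) and 0 under NGAL, with 0 at an unadjusted p under 0.05. Late against early, limma called 1 higher under LIF, 4 under NGAL and 5 under ANX. Desmocollin-2 (Dsc2), one of the 2 kinds of desmosomal cadherin, had 5.70, 5.87, 6.03 and 6.13 under LIF and 5.32, 4.99, 5.56 and 5.75 under ANX on days 1 and 2, against 3.89, 4.48, 3.83 and 3.83 in uninduced culture. All 8 induced arrays lay above all 4 uninduced arrays. The difference was 1.92 (SE 0.26, adjusted p = 2.25e-05) for LIF, a 3.79-fold ratio, and 1.40 (SE 0.26, adjusted p = 0.000605) for ANX, a 2.63-fold ratio. Most of it lay below the threshold on signal: with each array value raised to the threshold it came to 0.17 for LIF and 0.00 for ANX. Under NGAL Dsc2 had 4.62, 4.43, 3.70 and 3.93 on days 1 and 2 and 3.39, 3.82, 4.03 and 3.94 on days 3 and 4, in or near the uninduced range, and then 5.39 and 4.80 on day 5 and 4.71 and 6.24 on day 7.

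Desmoglein-2 (Dsg2), the partner cadherin found in simple epithelia, had 6.20, 6.78, 6.41 and 6.79 under LIF and 6.22, 5.76, 5.96 and 6.33 under ANX on days 1 and 2, against 4.83, 5.43, 5.00 and 4.64 in uninduced culture, again with no overlap. The difference was 1.57 (SE 0.32, adjusted p = 0.00106) for LIF and 1.09 (SE 0.32, adjusted p = 0.0171) for ANX, and the call for ANX was lost in 4 of the 8 fits that left out an array (adjusted p up to 0.094). All 4 uninduced arrays lay below the threshold, and with array values raised to it the difference was 0.76 for LIF and 0.29 for ANX. Fresh tissue had 5.97 and 5.54. By day 7 Dsg2 reached 6.66 and 8.48 under LIF, 6.23 and 7.87 under NGAL and 7.71 and 8.15 under ANX. The late change was 1.5 (SE 0.32, adjusted p = 0.00252) under NGAL and 1.62 (SE 0.32, adjusted p = 0.00102) under ANX, and 0.97 (SE 0.32, adjusted p = 0.0566) under LIF, which missed the threshold.

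Desmoplakin (Dsp), which ties the desmosome to keratin filaments, stayed flat for days and was high on day 7. It had 6.56 and 9.65 under LIF, 7.33 and 9.02 under NGAL and 8.76 and 9.11 under ANX on day 7, against 5.88, 5.81, 5.94 and 5.97 in uninduced culture and 6.26 and 5.79 in fresh tissue. Both ANX arrays were high, whereas under LIF replicate 2 stood alone and replicate 1 remained near its own day 5 values of 6.43 and 6.54. The late change was 1.81 (SE 0.38, adjusted p = 0.0021) under ANX, 1.26 (SE 0.38, adjusted p = 0.0327) under NGAL (a call lost in 7 of 8 fits without an array) and 1.12 (SE 0.38, adjusted p = 0.0697) under LIF. Without replicate 2 of day 7 it was 0.34 (adjusted p = 0.435) under LIF and 0.83 (adjusted p = 0.168) under NGAL, and without that of ANX it was 1.72 (adjusted p = 0.00973). Without replicate 1 of day 7 the LIF value was 1.89 (adjusted p = 4.62e-05). A second probe set of Dsp was flat, with group means between 5.34 and 5.98.

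Periplakin (Ppl), a linker of the desmosomal plaque, rose under every inducer. On day 7 it had 7.13 and 8.38 under LIF, 7.65 and 7.71 under NGAL and 7.67 and 7.98 under ANX, against 5.17, 5.42, 5.67 and 5.05 in uninduced culture. No day 7 array overlapped with any uninduced array. The uninduced arrays and the NGAL group means of days 1 and 2 (5.39 and 5.33) lay below the threshold. The size of the rise is thus uncertain. The late change was 1.24 (SE 0.21, adjusted p = 0.000454) under LIF, 1.35 (SE 0.21, adjusted p = 0.000108) under NGAL and 1.41 (SE 0.21, adjusted p = 4.94e-05) under ANX, and the 3 calls held in every alternative setting run. Plakophilin-2 (Pkp2), which anchors desmoplakin, was lower in signal, with 5.79 and 6.86 under ANX on day 7 against 5.04, 5.10, 5.32 and 5.17 on days 1 and 2, a rise of 0.76 (SE 0.18, adjusted p = 0.00477) that was 0.27 with array values raised to the threshold. Its change was 0.53 (adjusted p = 0.0642) under LIF. Plakoglobin (Jup), shared by desmosomes and adherens junctions, had 9.60 to 10.85 over all arrays and was called in none of the comparisons with uninduced culture or over time.

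**Figure D3:**
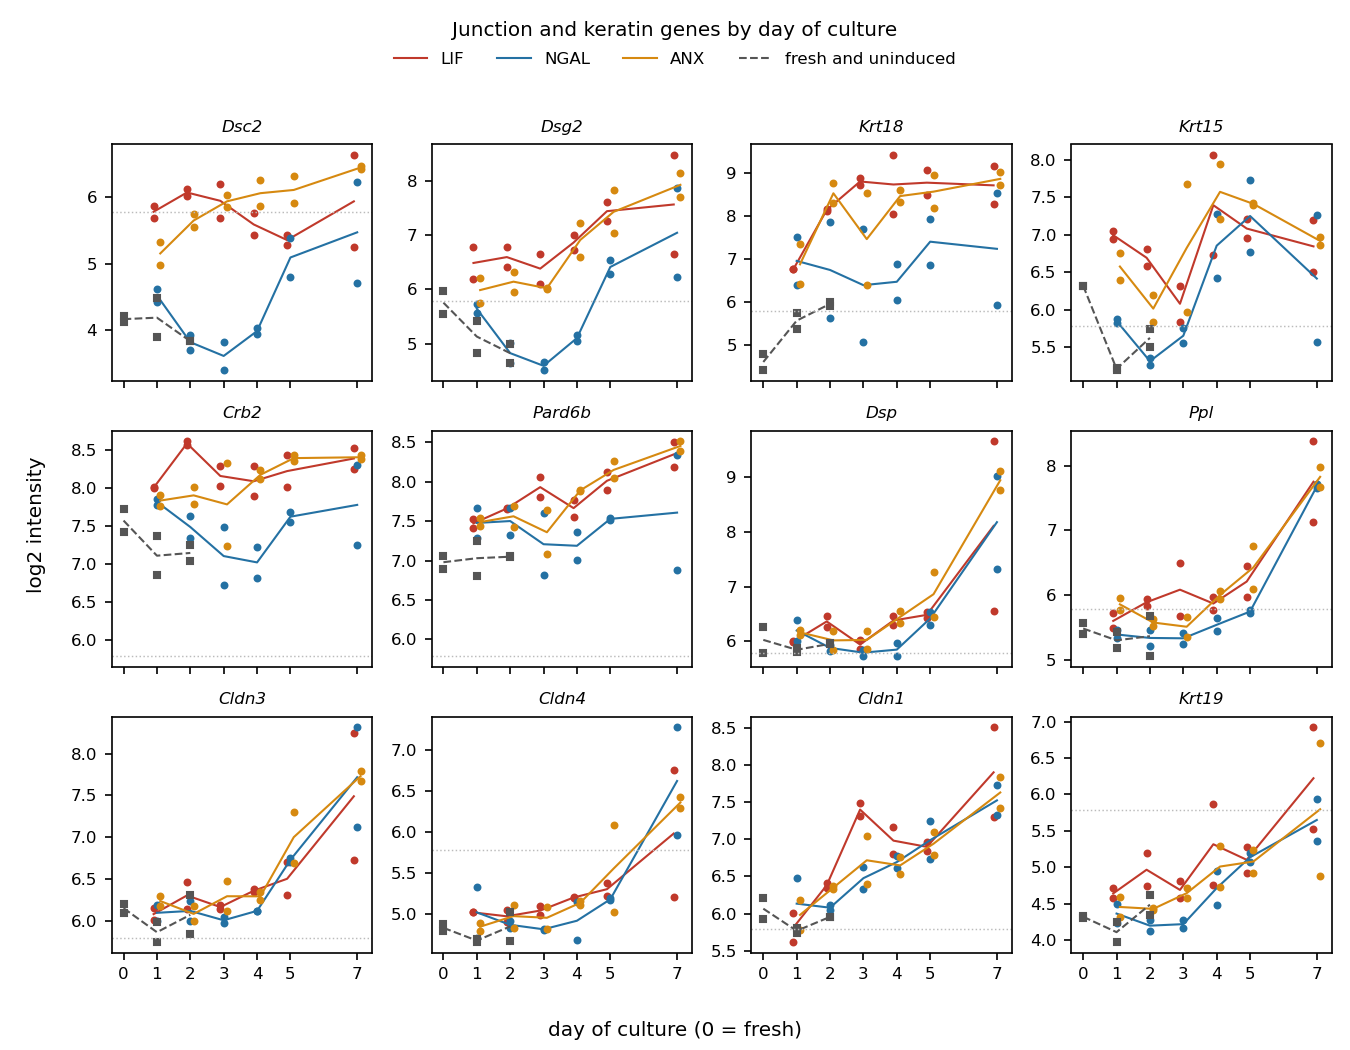
Log2 intensity (y axis) by day of culture (x axis, 0 for fresh tissue) for 12 members: Dsc2, Dsg2, Krt18, Krt15, Crb2, Pard6b, Dsp, Ppl, Cldn3, Cldn4, Cldn1 and Krt19. Points are arrays, lines join group means, squares are fresh and uninduced arrays, and the dotted line is the threshold of 5.79. On days 1 and 2 Dsc2 and Dsg2 lie above the uninduced arrays under LIF and ANX, with all ANX arrays of Dsc2 still under the dotted line, whereas Dsp, Ppl, Cldn3 and Cldn4 are high mainly on day 7.

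Among the keratins 1 gene stood out by size. Keratin 18 (Krt18), the type I keratin of simple epithelia, had 6.76 and 6.75 on day 1, 8.11 and 8.16 on day 2 and 8.88 and 8.72 on day 3 under LIF, and ranged from 8.05 to 9.41 from day 4 on. ANX cultures had 6.40 and 7.34 on day 1 and 8.29 and 8.76 on day 2. Uninduced cultures had 5.37 and 5.74 on day 1 and 5.90 and 6.0 on day 2, and fresh tissue had 4.41 and 4.78. All 8 LIF and ANX arrays of days 1 and 2 lay above the uninduced ones. The difference was 1.69 (SE 0.57, adjusted p = 0.0338) for LIF, a 3.23-fold ratio, and 1.94 (SE 0.57, adjusted p = 0.0188) for ANX, a 3.85-fold ratio. Replicates of NGAL cultures disagreed: Krt18 had 6.38 and 7.51 on day 1, 5.61 and 7.87 on day 2, 5.07 and 7.70 on day 3 and 5.92 and 8.54 on day 7. The calls of Krt18 were lost in 7 of 8 fits without an array for LIF and in 5 of 8 for ANX, with adjusted p up to 0.109 and 0.0742.

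Keratin 8 (Krt8), the type II partner with which keratin 18 forms filaments, was called only under ANX and only over time. It had 6.35 and 7.71 under LIF, 5.49 and 7.20 under NGAL and 6.99 and 8.05 under ANX on day 7. Uninduced arrays had 5.49, 5.57, 5.64 and 5.70, all below the threshold. Replicate 2 was the higher array under each inducer. The late change was 1.21 (SE 0.34, adjusted p = 0.0157) under ANX, lost in 4 of the 8 fits without an array, and 1.00 (SE 0.34, adjusted p = 0.0675) under LIF. Keratin 19 (Krt19), another simple epithelial keratin, had 5.52 and 6.92 under LIF, 5.94 and 5.36 under NGAL and 4.88 and 6.71 under ANX on day 7, against 3.97, 4.25, 4.35 and 4.63 in uninduced culture. Its late change was 1.11 (adjusted p = 0.015) under NGAL, 1.00 (adjusted p = 0.023) under ANX and 0.86 (adjusted p = 0.0722) under LIF, most of it below the threshold (0.04 under NGAL and 0.23 under ANX with array values raised to it). The calls were lost in 3 of 8 fits without an array under NGAL and 5 of 8 under ANX.

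Keratin 15 (Krt15), known from basal cells of stratified epithelia, had 6.94, 7.04, 6.58 and 6.81 under LIF on days 1 and 2, against 5.19, 5.23, 5.74 and 5.51 in uninduced culture and 6.32 and 6.32 in fresh tissue. All 4 LIF arrays lay above every uninduced array, a difference of 1.43 (SE 0.34, adjusted p = 0.00394). ANX cultures had 6.75, 6.40, 5.84 and 6.19, a difference of 0.88 (adjusted p = 0.0675). All uninduced arrays lay below the threshold, and with array values raised to it the ANX difference was 0.51. Under NGAL the gene had 7.73 and 6.77 on day 5 and 5.57 and 7.26 on day 7, against 5.83, 5.87, 5.26 and 5.36 on days 1 and 2, a late change of 1.25 (SE 0.34, adjusted p = 0.0162) lost in 3 of 8 fits without an array. Keratin 23 (Krt23) was higher late under ANX by 0.91 (adjusted p = 0.00557), with 5.10 and 6.81 on day 5. Without replicate 2 of that day the difference was 0.48. Keratin 71 (Krt71) was lower late under ANX by a log2 difference of -0.27 (adjusted p = 0.0359), a call lost in 6 of 8 fits without an array (adjusted p up to 0.13) and with day 7 set against day 1. The remaining tested keratins were called in no comparison with uninduced culture, over time or between inducers, apart from Krt20 on day 2 of uninduced culture, and 8 of the 23 keratins were not tested, among them Krt7, Krt13 and Krt14.

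The claudins changed in 2 directions. Claudin-1 (Cldn1), which seals tight junctions, had 7.49 and 7.31 under LIF by day 3. On day 7 it had 7.30 and 8.51 under LIF, 7.73 and 7.32 under NGAL and 7.42 and 7.84 under ANX, against 5.80, 5.74, 5.95 and 5.96 in uninduced culture. The late change was 1.30 (SE 0.20, adjusted p = 0.000268) under LIF, 1.15 (SE 0.20, adjusted p = 0.000531) under NGAL and 1.12 (SE 0.20, adjusted p = 0.000524) under ANX. Claudin-3 (Cldn3), a sealing claudin of tubule epithelia, had 6.73 and 8.25 under LIF, 7.12 and 8.31 under NGAL and 7.67 and 7.79 under ANX on day 7, against 5.74, 5.98, 5.83 and 6.30 in uninduced culture. All 6 day 7 arrays exceeded the uninduced ones, and the late change was 0.81 (SE 0.23, adjusted p = 0.0303) under LIF, 1.12 (SE 0.23, adjusted p = 0.00217) under NGAL and 1.21 (SE 0.23, adjusted p = 0.000868) under ANX. The LIF call was lost in 6 of 8 fits without an array, and the value was 0.43 (adjusted p = 0.182) without replicate 2 of day 7.

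Claudin-4 (Cldn4), a claudin of the distal nephron and collecting duct in the adult, had 5.21 and 6.75 under LIF, 5.97 and 7.27 under NGAL and 6.30 and 6.42 under ANX on day 7, against 4.66, 4.70, 4.68 and 5.03 in uninduced culture. The late change was 0.95 (adjusted p = 0.0161) under NGAL, 1.04 (adjusted p = 0.00663) under ANX and 0.64 (adjusted p = 0.124) under LIF. About the earlier days the array says little, since those values lay below the threshold, and the change with array values raised to it was 0.42 under NGAL and 0.36 under ANX. The calls were lost in 3 of 8 fits without an array under NGAL and 1 of 8 under ANX. Claudin-6 (Cldn6), a claudin of embryonic epithelia, had 7.79, 8.60, 9.15 and 7.88 on days 5 and 7 under ANX, against 6.65, 6.93, 7.05 and 6.80 on days 1 and 2, a change of 1.5 (SE 0.33, adjusted p = 0.00275). Under LIF it was already at 7.77 and 7.22 on day 2 and changed by 0.83 (adjusted p = 0.12) over time. Claudin-19 (Cldn19) was higher late under LIF by 0.41 (adjusted p = 0.0174), a call lost in 4 of 8 fits without an array.

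Claudin-11 and claudin-12, the claudins that uninduced culture raised, were lower under LIF and ANX than in uninduced culture. On days 1 and 2 Cldn11 had 9.38, 10.01, 10.53 and 10.75 under LIF and 9.81, 10.38, 10.94 and 10.80 under ANX, against 11.22, 11.13, 11.98 and 11.86 in uninduced culture. On each day the induced arrays lay between the fresh arrays and the uninduced arrays of that day, and the differences were -1.39 (SE 0.22, adjusted p = 9.95e-05) for LIF and -1.07 (SE 0.22, adjusted p = 0.00138) for ANX. The call for ANX was lost with the mean of probe sets. A second probe set had group means of 7.298 and 7.288 under ANX and 6.665 and 7.0 under LIF, against 7.437 and 7.382 in uninduced culture. Cldn11 then rose to 11.90, 11.79, 11.91 and 11.52 on days 5 and 7 under LIF, a late change of 1.62 (adjusted p = 4.47e-05), and by 1.12 (adjusted p = 0.000902) under ANX. Cldn12 was lower than in uninduced culture by a log2 difference of -0.72 (adjusted p = 7.62e-05) for LIF and -0.52 (adjusted p = 0.002) for ANX. Under NGAL neither passed, with -0.77 (adjusted p = 0.303) for Cldn11 and -0.32 (adjusted p = 0.483) for Cldn12. Cldn12 was lower late than early by -0.67 (adjusted p = 0.000214) under NGAL and -0.46 (adjusted p = 0.00515) under ANX, so that on day 7 all 6 induced arrays, at 9.0 to 9.26, lay beside fresh tissue at 9.28 and 9.17.

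Of the genes higher late under at least 2 inducers, 7 had an entry in the RefSeq promoter table (GRCr8), which matched 57 of the 79 genes. The 250 bases before the annotated start were searched on both strands for the E-box CAGGTG, the letters that the Snail and Zeb repressors are known to bind. They were also searched for AACCGG, the core of the sequence that grainyhead-like factors bind. The 2 motifs cannot overlap each other. An E-box was found in 5 of the 7, in 23 of the 57 matched genes (40.4%) and in 4673 of all 27457 genes with a promoter entry (17.0%). AACCGG was found in 1 of the 7, in 5 of the 57 (8.77%) and in 1724 of all 27457 genes (6.28%). The members' windows were also richer in G and C, with a median of 59.2% against 51.2% over all promoters, and its part in the count of motifs was not tested. A match is a run of letters and not a shown binding site. The sequences of Dsc2, which holds an E-box, and of Cldn11, which holds neither motif, are not shown. Of the 5 sequences below, 4 hold an E-box, that of Ppl also holds AACCGG, and that of Cldn1 holds neither motif. Capitals mark the E-box. They lie at chr17:26877122-26877371 on the minus strand (Dsp), chr10:10957138-10957387 on the plus strand (Ppl), chr18:12121037-12121286 on the plus strand (Dsg2), chr12:27346548-27346797 on the minus strand (Cldn3) and chr11:87926126-87926375 on the plus strand (Cldn1), each directly upstream of its gene and given 5′ to 3′ on the gene's strand.
Dsp: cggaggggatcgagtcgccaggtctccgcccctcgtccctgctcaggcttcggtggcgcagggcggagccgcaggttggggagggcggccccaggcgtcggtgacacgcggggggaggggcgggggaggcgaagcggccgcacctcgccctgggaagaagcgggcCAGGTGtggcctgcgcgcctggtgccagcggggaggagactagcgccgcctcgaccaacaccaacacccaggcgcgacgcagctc
Ppl: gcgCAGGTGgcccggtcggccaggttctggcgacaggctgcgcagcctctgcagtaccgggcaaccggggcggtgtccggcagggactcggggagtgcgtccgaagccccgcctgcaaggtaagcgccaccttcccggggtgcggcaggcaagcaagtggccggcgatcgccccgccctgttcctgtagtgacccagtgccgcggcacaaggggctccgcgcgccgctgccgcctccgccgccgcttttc
Dsg2: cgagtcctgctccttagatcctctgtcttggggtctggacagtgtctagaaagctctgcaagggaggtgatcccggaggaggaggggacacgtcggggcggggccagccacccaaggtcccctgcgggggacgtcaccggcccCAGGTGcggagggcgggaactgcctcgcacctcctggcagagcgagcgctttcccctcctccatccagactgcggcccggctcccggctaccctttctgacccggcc
Cldn3: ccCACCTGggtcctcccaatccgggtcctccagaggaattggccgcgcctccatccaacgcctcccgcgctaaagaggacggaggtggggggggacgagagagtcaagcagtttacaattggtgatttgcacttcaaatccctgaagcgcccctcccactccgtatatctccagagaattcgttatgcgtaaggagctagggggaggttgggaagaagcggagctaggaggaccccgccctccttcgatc
Cldn1: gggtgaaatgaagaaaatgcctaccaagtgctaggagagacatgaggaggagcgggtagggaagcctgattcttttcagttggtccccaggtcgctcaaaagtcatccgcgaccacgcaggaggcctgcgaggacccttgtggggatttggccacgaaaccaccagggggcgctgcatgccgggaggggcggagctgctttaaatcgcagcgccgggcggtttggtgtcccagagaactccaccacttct

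Cldn4 and Krt19, also higher late under 2 inducers, are named only, since no entry was matched.

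The other tight junction genes changed little in size. F11r (JAM-A), an immunoglobulin-like adhesion protein of tight junctions, was higher under ANX on days 1 and 2, with 9.29, 9.49, 9.40 and 9.37 against 8.61, 9.07, 8.90 and 8.72 in uninduced culture, a difference of 0.56 (SE 0.14, adjusted p = 0.00568) that was 0.45 (adjusted p = 0.0558) without replicate 1 of uninduced day 1. All 4 ANX arrays lay above the uninduced ones. Cingulin (Cgn) was higher by 0.45 (adjusted p = 0.0271) in the same comparison, a call lost in 4 of 8 fits without an array, at values below the threshold, 5.45, 5.72, 5.62 and 5.52 under ANX against 4.89, 5.29, 5.26 and 5.07 in uninduced culture, and both ANX arrays of day 7 had 6.04 and 6.35. Zonula occludens-1 (Tjp1), the scaffold under the strands, had 10.15 to 10.37 under LIF on days 1 and 2 against 10.38 to 10.74 in uninduced culture, a difference of -0.31 (adjusted p = 0.126). Marveld1, a membrane protein with the MARVEL domain that occludin also carries, was high under NGAL on the probe set used. It had 10.12, 9.71, 10.09, 10.09, 9.61, 9.99, 10.39 and 9.96 on days 3 to 7 under NGAL, against 8.83 to 9.54 in the fresh and uninduced arrays, with no overlap. On days 1 and 2 LIF cultures had 8.78, 9.07, 8.91 and 8.86, against 9.45, 9.43, 9.41 and 9.54 in uninduced culture, a difference of -0.55 (SE 0.17, adjusted p = 0.0208) lost in 4 of 8 fits without an array. The call was also lost with the mean of probe sets. A second probe set of Marveld1 was not high under NGAL. Its group means on days 3, 4, 5 and 7 were 7.632, 7.721, 7.642 and 7.296 under NGAL and 7.897, 7.585, 7.703 and 7.661 under ANX, against 7.734 in fresh tissue.

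Among the polarity genes Crumbs-2 (Crb2), an apical membrane protein, was higher early under LIF and ANX. It had 8.0, 8.01, 8.62 and 8.56 under LIF and 7.91, 7.77, 7.80 and 8.01 under ANX on days 1 and 2, against 6.86, 7.37, 7.25 and 7.04 in uninduced culture. The groups did not overlap, and the difference was 1.17 (SE 0.21, adjusted p = 0.000435) for LIF and 0.74 (SE 0.21, adjusted p = 0.0159) for ANX, the second lost in 4 of 8 fits without an array. The fresh group mean of Crb2 was 7.57, above the uninduced means of 7.11 and 7.15. Par-6 beta (Pard6b), which links Crumbs and Cdc42 to atypical protein kinase C, had 8.04, 8.26, 8.40 and 8.51 on days 5 and 7 under ANX, against 7.43, 7.54, 7.43 and 7.69 on days 1 and 2, a rise of 0.78 (SE 0.21, adjusted p = 0.0124) lost in 2 of 8 fits without an array. Crumbs-3 (Crb3), the Crumbs form of most epithelia, rose under ANX to 6.74 and 6.49 on day 7, against 5.63, 5.57, 5.72 and 5.59 on days 1 and 2. Its late change was 0.67 (SE 0.16, adjusted p = 0.00507), from early values that all lay below the threshold. Par-3 (Pard3), the scaffold of the Par complex, was lower under LIF than in uninduced culture by a log2 difference of -0.25 (adjusted p = 0.031), and this call was lost in 4 of 8 fits without an array.

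**Figure D4:**
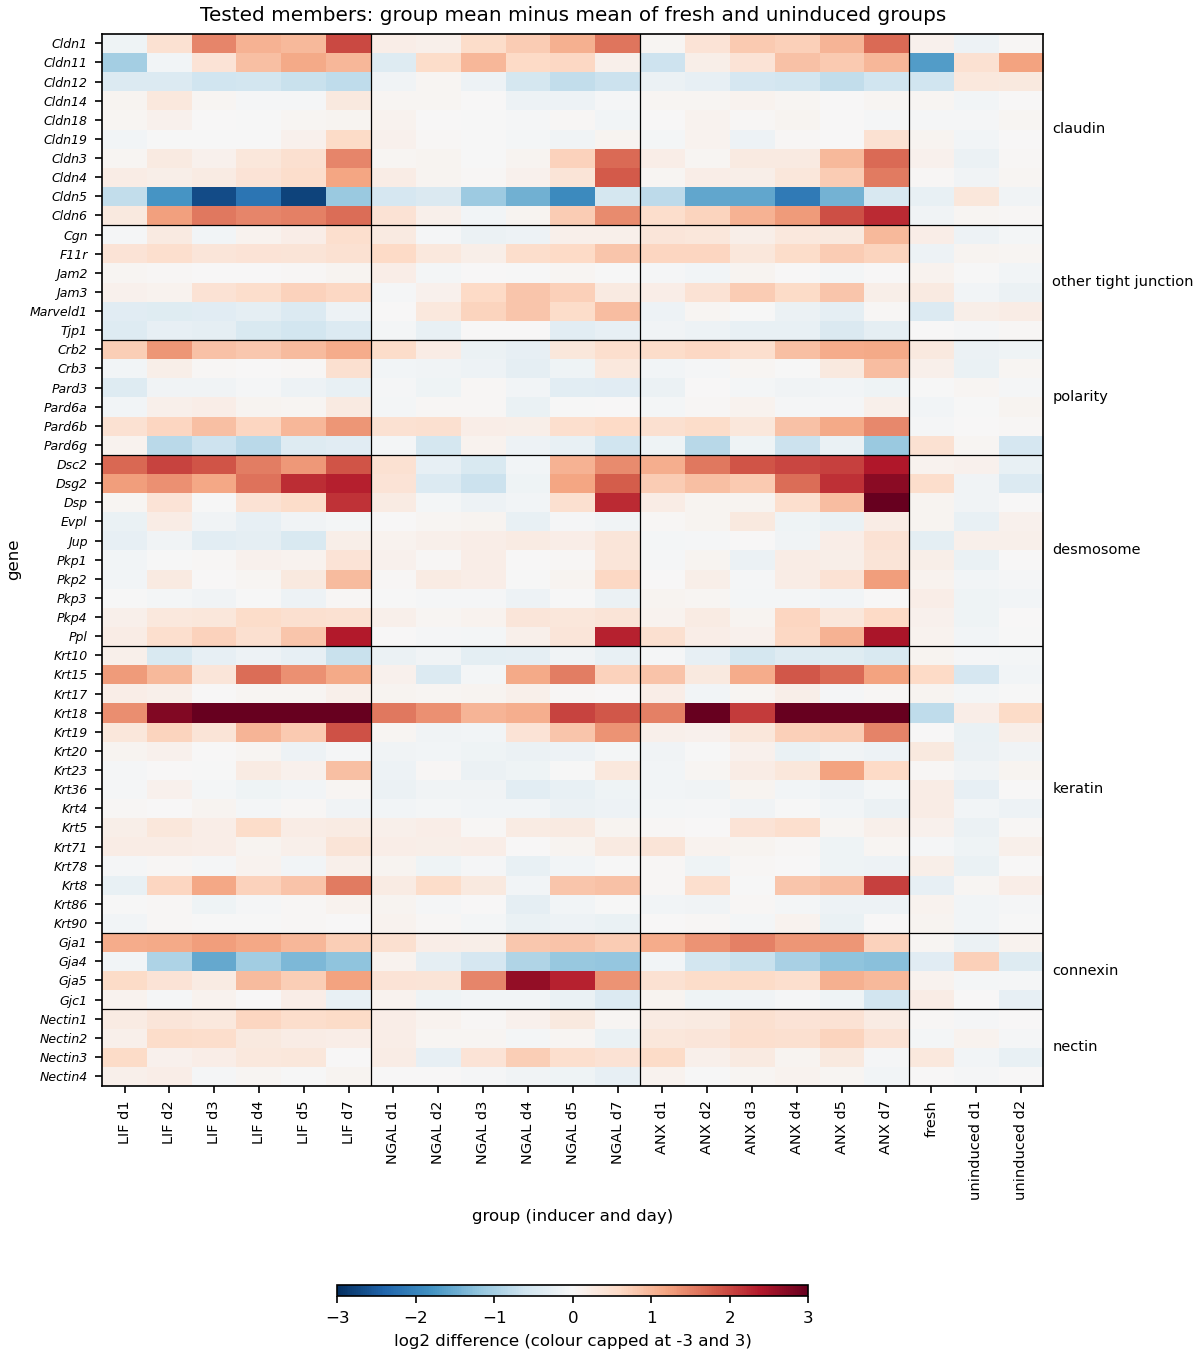
Group mean minus the mean of the fresh and the 2 uninduced groups (log2, colour capped at -3 and 3) for the 55 tested members (rows, by family) in the 21 groups (columns). Rows that turn red from left to right within an inducer include Cldn3, Cldn4, Dsp, Ppl and Krt8, Krt18 is red under LIF and ANX from day 1, and Cldn5 and Gja4 are blue.

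The connexins divided by gene. Connexin-43 (Gja1), the connexin of many embryonic mesenchymes, had 12.15, 12.24, 12.24 and 12.18 under LIF and 12.27, 12.11, 12.48 and 12.40 under ANX on days 1 and 2, against 10.85, 10.95, 11.26 and 11.14 in uninduced culture. None of the 8 induced arrays overlapped with the uninduced ones. The difference was 1.15 (SE 0.22, adjusted p = 0.000634) for LIF and 1.27 (SE 0.22, adjusted p = 0.000324) for ANX and held in every alternative setting run. Connexin-37 (Gja4), known from arterial endothelium, was lower on days 1 and 2 under LIF by a log2 difference of -0.67 (adjusted p = 0.0114), lost in 3 of 8 fits without an array, and lower late than early under each inducer, by -0.78 (adjusted p = 0.00943) for LIF, -1.07 (adjusted p = 0.000406) for NGAL and -0.91 (adjusted p = 0.00153) for ANX. On day 7 all 6 arrays had 5.90 to 6.34, against 6.95 and 7.06 in fresh tissue.

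Claudin-5 (Cldn5), the main claudin of endothelium, had lower values with the inducers for most of the week. LIF cultures had 7.51 and 7.71 on day 1, 6.54 and 6.65 on day 2, 5.51 and 5.81 on day 3, 5.5 and 6.81 on day 4 and 5.77 and 5.38 on day 5. Uninduced cultures had 8.97, 8.41, 8.23 and 8.26 on days 1 and 2. The difference on days 1 and 2 was -1.37 (SE 0.47, adjusted p = 0.0377) for LIF, lost in 7 of 8 fits without an array, and -1.29 (adjusted p = 0.0543) for ANX. On day 7 the arrays had 5.75 and 8.74 under LIF, 7.03 and 8.60 under NGAL and 7.22 and 8.53 under ANX, replicate 2 being the higher each time.

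Several endothelial markers were also lower. Of the 8 tested markers of the list (Cdh5 had no probe set), 5 were lower and 0 higher under LIF than in uninduced culture, with a summed intensity of 699.8 to 1272.7 under LIF against 1302.2 to 2749.1 in uninduced culture. For ANX 4 were lower and 1 higher (932.9 to 1651.0 under ANX). Of all genes tested, 24.0% were called for LIF and 20.3% for ANX against uninduced culture. Over time 3, 6 and 6 of the 8 were lower late than early under LIF, NGAL and ANX, and 0 were higher, beside 9.09%, 12.0% and 15.9% of all genes tested called. The late sums were 512.9 to 723.4, 688.9 to 1607.3 and 484.4 to 580.1. Pecam1 had 5.40 and 5.20 on day 7 under LIF against 8.01, 7.56, 6.76 and 6.86 in uninduced culture, and Kdr had 7.02 and 6.94 on day 7 under LIF, where replicate 2 did not follow the high Cldn5. Cldn5 itself was called in no late comparison, with late changes of -0.69 (adjusted p = 0.407) under LIF, -0.76 (adjusted p = 0.349) under NGAL and 0.23 (adjusted p = 0.817) under ANX. The part of endothelial cells in the values of Cldn5 and Gja4 was not tested.

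Connexin-40 (Gja5), known from arterial endothelium and the heart's conduction system, was high under NGAL. It had 7.44 and 7.46 on day 3, 8.32 and 8.95 on day 4, 7.73 and 8.84 on day 5 and 6.09 and 8.59 on day 7 under NGAL, against 5.68 to 6.24 in fresh and uninduced arrays. The late change under NGAL was 1.43 (SE 0.34, adjusted p = 0.00654), and 1.15 (adjusted p = 0.0566) without replicate 2 of day 5, although replicate 1 of day 7 lay within the uninduced range. Under LIF and ANX its highest array had 7.54, on day 4 of LIF. Among the nectins, nectin-3 (Nectin3) was higher on days 1 and 2 than in uninduced culture by 0.52 (adjusted p = 0.0297) for LIF and 0.52 (adjusted p = 0.0351) for ANX, each call lost in 7 of 8 fits without an array. Fresh tissue had a group mean of 8.90, and uninduced culture was lower, with 8.48 and 8.34. Group means on days 1 and 2 were 9.16 and 8.71 under LIF and 9.14 and 8.72 under ANX, on either side of fresh tissue. A second probe set of Nectin3 did not show this rise. It had group means of 5.967 and 6.422 under LIF and 5.866 and 5.947 under ANX, against 6.118 and 6.402 in uninduced culture. From early to late days limma called 0 of the 4 nectins under each inducer on the probe sets used, with Nectin3 at 0.48 (adjusted p = 0.0739) under NGAL.

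**Figure D5:**
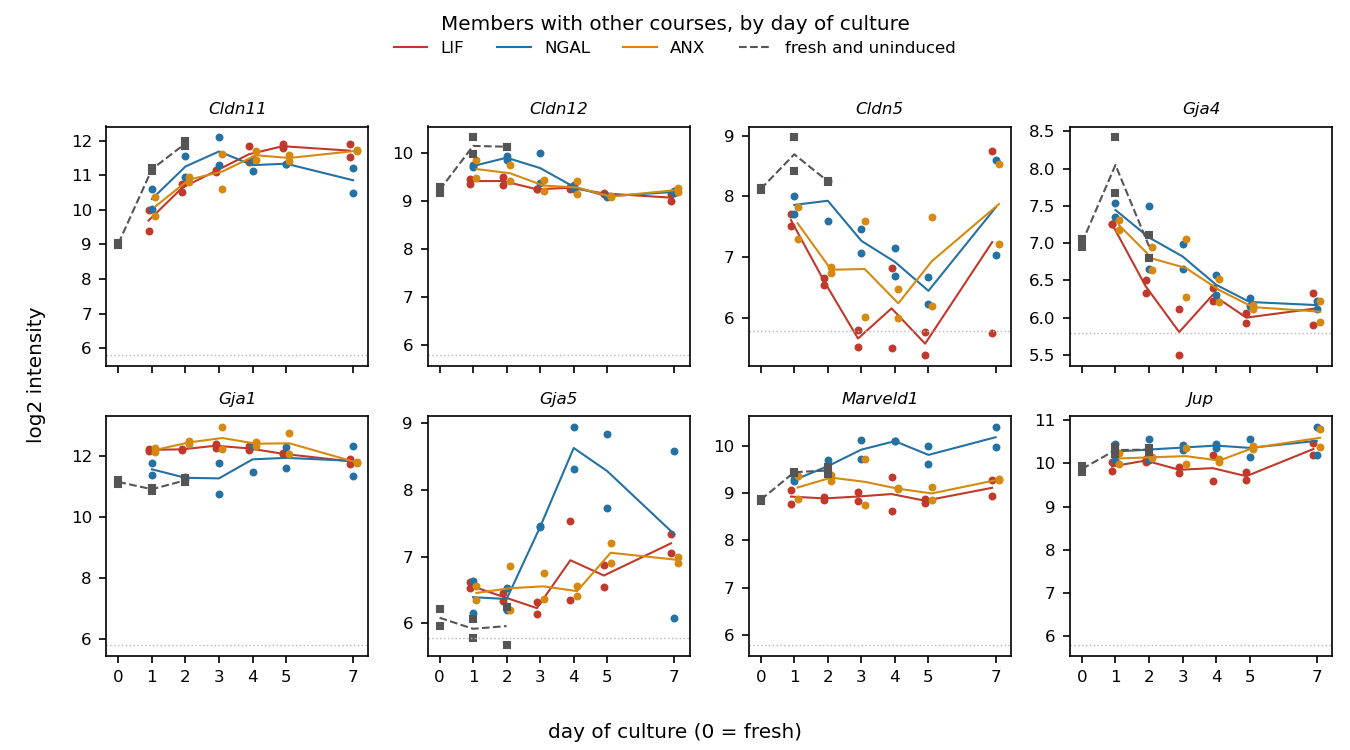
Log2 intensity (y axis) by day of culture (x axis, 0 for fresh tissue) for Cldn11, Cldn12, Cldn5, Gja4, Gja1, Gja5, Marveld1 and Jup, with points for arrays, lines through group means, squares for fresh and uninduced arrays and a dotted line at the threshold of 5.79. Gja5 and Marveld1 are highest under NGAL from day 3, and Cldn5 has a high replicate 2 on day 7.

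More members were called between LIF and NGAL than between LIF and ANX. On days 1 and 2, 5 of the 55 were called between LIF and NGAL, beside 5.17% of all genes tested: Dsc2 was higher under LIF by 1.76 (adjusted p = 0.000309), Dsg2 by 1.31 (adjusted p = 0.0153), Krt15 by 1.26 (adjusted p = 0.0299) and Gja1 by 0.79 (adjusted p = 0.0356), and Cldn12 was lower by 0.40 (adjusted p = 0.0333). Of these, the calls of Dsg2, Krt15, Gja1 and Cldn12 were lost in 4 to 8 of the 8 fits without an array. On days 3 to 7 the count was 21, 15 higher and 6 lower under LIF (38.2%, beside 39.0%), so the share was that of all genes. The largest rises were Krt18 with 1.88 (SE 0.41, adjusted p = 0.000732), Dsg2 with 1.28 (SE 0.22, adjusted p = 9.6e-05), Dsc2 with 1.17 (SE 0.18, adjusted p = 3.1e-05), Cldn6 with 1.01 (adjusted p = 0.00134), Crb2 with 0.83 (adjusted p = 0.00013) and Pard6b with 0.61 (adjusted p = 0.00235). With array values raised to the threshold on signal, the differences on days 1 and 2 were 0.165 for Dsc2 and 0.757 for Dsg2. On days 3 to 7 they were 0.102 and 0.808. Under LIF Dsg2 had 6.11 to 8.48 on those days, and under NGAL 4.51 to 7.87.

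The 6 genes lower under LIF than under NGAL on days 3 to 7 were Gja5 with -1.15 (SE 0.24, adjusted p = 0.000561), Marveld1 with -1.04 (SE 0.12, adjusted p = 1.78e-06), Cldn5 with -0.95 (adjusted p = 0.0268), Jup with -0.47 (adjusted p = 0.00102), Gja4 with -0.35 (adjusted p = 0.0359) and Tjp1 with -0.28 (adjusted p = 0.0365). The calls of Cldn5, Gja4 and Tjp1 were lost in 8, 9 and 8 of the 16 fits without an array (adjusted p up to 0.114, 0.112 and 0.137). On the probe set used, Marveld1 had 8.62 to 9.33 under LIF against 9.61 to 10.39 under NGAL, with no overlap. Skeletal muscle markers moved the same way: all 5 tested were lower under LIF, with a summed intensity of 2433.5 to 4847.2 against 2838.7 to 11831.9 under NGAL (Myf5 and Actc1 had no probe set), and 5 of 7 stroma markers were lower under LIF. In this comparison 39.0% of all genes tested were called. The muscle regulator Myog had 11.26, 11.84, 11.15 and 12.34 on days 3 and 4 under NGAL. The part of muscle and stroma cells in the values of Gja5, Marveld1 and Jup was not tested.

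The comparison of NGAL with ANX shares its NGAL arrays with the one of LIF with NGAL. On days 1 and 2, 2 of the 55 were called, beside 2.12%, Dsc2 lower under NGAL with -1.24 (adjusted p = 0.0115) and Gja1 lower with -0.90 (adjusted p = 0.0308). These calls were lost in 3 and 6 of the 8 fits without an array, and all Dsc2 values of both groups lay below the threshold on signal. On days 3 to 7 there were 16, 3 higher and 13 lower under NGAL (29.1%, beside 36.0%). Gja5 was higher under NGAL by 1.16 (adjusted p = 0.000687), Marveld1 by 0.85 (adjusted p = 1.55e-05) and Nectin3 by 0.37 (adjusted p = 0.0211). The Nectin3 call was lost with the mean of probe sets. On days 3, 4, 5 and 7 a second probe set of Nectin3 was not higher under NGAL on most days. Its group means were 6.023, 5.58, 5.725 and 5.812 under NGAL, against 5.874, 5.881, 6.054 and 6.153 under ANX. The largest falls were Dsc2 with -1.61 (SE 0.18, adjusted p = 1.84e-06), Krt18 with -1.47 (SE 0.41, adjusted p = 0.00674), Dsg2 with -1.29 (SE 0.22, adjusted p = 0.000125), Cldn6 with -1.08 (adjusted p = 0.000992), Crb2 with -0.81 (adjusted p = 0.00024) and Krt15 with -0.64 (adjusted p = 0.0407). The NGAL group means of Dsc2 on these days, 3.605 to 5.473, lay below the threshold, so the size of its fall is uncertain. The calls of Krt15 and Nectin3 were lost in 10 and 5 of the 16 fits without an array (adjusted p up to 0.159 and 0.0845). Crb3 was lower under NGAL by 0.38 (adjusted p = 0.0105), and so was Cgn by 0.45 (adjusted p = 0.00136). All 5 muscle markers were higher under NGAL, beside 36.0% of all genes tested called in either direction. Their sum was 2838.7 to 11831.9 under NGAL against 2173.3 to 2954.5 under ANX, and the part of muscle cells in these differences was not tested.

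Between LIF and ANX limma called 0 of the 55 on days 1 and 2 (beside 0.623% of all genes tested) and 0 on days 3 to 7 (beside 2.26%), with 0 and 7 at an unadjusted p under 0.05. On days 1 and 2 the differences, LIF minus ANX, ran from -0.32 for Cldn11 to 0.55 for Krt15, and the 95% interval lay within 1 of zero for 50 of the 55. On days 3 to 7 they ran from -0.80 for Cldn5 to 0.42 for Krt18, with 53 of the 55 intervals within 1. That of Dsg2 was -0.01 (interval -0.46 to 0.45) and that of Krt18 was 0.42 (interval -0.42 to 1.26), so a 2-fold difference in Krt18 is not excluded by these arrays. Leaving out replicate 2 of day 7 under LIF gave 7 calls on days 3 to 7, among them Dsp with -0.73 (adjusted p = 0.0134) and Dsc2 with -0.61 (adjusted p = 0.0317), both lower under LIF.

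Whether the change over time itself differed between the inducers was tested with an F test over the 3. None of the 55 was called by limma, beside 1.48% of all genes tested, with 8 at an unadjusted p under 0.05. The lowest adjusted p was that of Cldn11 (0.0581), with late changes of 1.62 under LIF, 0.31 under NGAL and 1.12 under ANX, followed by Dsc2 (0.0737), with -0.28, 1.12 and 0.88. Leaving out single day 7 arrays called up to 4 genes, with Dsc2 among them in each of the 3 fits that called more than 1 gene. The different numbers of late calls under LIF, NGAL and ANX are thus not shown to be different responses.

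Beyond these genes, 38 of 48 related adherens junction, polarity partner and regulator genes were tested. Late against early, 6 were higher and 2 lower under LIF, 5 higher and 1 lower under NGAL, and 11 higher and 3 lower under ANX. Of all genes tested, 9.09%, 12.0% and 15.9% were called in these comparisons. Cdh1 was higher late by 1.84 (adjusted p = 0.0303) under LIF, 1.97 (adjusted p = 0.0156) under NGAL and 3.18 (adjusted p = 0.0002) under ANX, and the adhesion protein Epcam by 2.67 (adjusted p = 4.47e-05), 2.55 (adjusted p = 4.22e-05) and 3.32 (adjusted p = 1.35e-06). Twist1, a repressor of epithelial genes, was lower late under all 3, by -2.48 (adjusted p = 9.2e-06), -1.46 (adjusted p = 0.00179) and -2.72 (adjusted p = 1.51e-06). Other repressors listed did not all follow. From days 1 and 2 to days 5 and 7, Snai1 group means went from 8.25 and 8.13 to 8.63 and 8.84 under NGAL. Under LIF Snai1 went from 8.49 and 7.93 to 7.46 and 7.95, and under ANX from 8.80 and 8.39 to 8.095 and 7.99. Zeb1 went from 9.30 and 9.42 to 9.65 and 9.46 under LIF. Under NGAL Zeb1 went from 9.75 and 10.03 to 9.81 and 10.08, and under ANX from 9.30 and 9.565 to 9.18 and 9.08. Zeb2 went from 8.96 and 8.23 to 6.68 and 6.37 under LIF and from 9.21 and 9.43 to 7.30 and 6.94 under ANX. Under NGAL Zeb2 went from 9.21 and 9.30 to 8.93 and 8.93. Cdh1 and Dsp showed the same replicates high on day 7.

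Markers of the cells that carry such junctions also moved. Of 6 tested markers of early nephron epithelium, 3, 4 and 3 were higher late under LIF, NGAL and ANX and 0 lower, beside 4.22%, 6.23% and 8.06% of all genes tested called higher. The late sums were 1983.0 to 5051.3, 2107.4 to 4565.7 and 2924.7 to 4038.2, against early sums of 1539.1 to 2384.4, 689.2 to 1098.8 and 1135.4 to 2052.5. Of 7 tested markers of ureteric bud, 0 were called over time under LIF and NGAL (beside 9.09% and 12.0% of all genes tested). Under ANX Tfap2b was higher and Wnt11 lower (beside 15.9% called). The late sums of the bud markers were 653.0 to 1051.1, 680.8 to 943.5 and 722.2 to 1070.9 under LIF, NGAL and ANX, against 604.3 to 747.9, 624.4 to 706.0 and 720.7 to 847.7 early. Calb1, Tfap2a, Aqp2 and Elf5 stayed below the threshold in all groups. The part of bud cells in the late rise was not tested.

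The 24 genes that were not tested had no group mean above the threshold, and the array gives no firm order for them. Some had higher signal on day 7 in at least 1 array: claudin-7 (Cldn7), a claudin of the distal nephron, had 5.42 and 5.76 under ANX against 4.48, 5.00, 4.73 and 4.65 in uninduced culture, and occludin (Ocln) had 5.78 and 5.41 against 4.71, 4.95, 4.83 and 5.05. Connexin-26 (Gjb2) had 4.47 and 6.58 under LIF on day 7 against 4.13, 4.09, 4.23 and 4.33 in uninduced culture, again with replicate 2 the higher, and keratin 7 (Krt7) had 4.63 and 6.23 under ANX against 4.61, 4.63, 4.72 and 4.83. Other probe sets of 7 members, looked at after their values were seen, were called in at least 1 comparison. A second probe set of Cldn1 rose late by 2.75 under LIF, 2.8 under NGAL and 2.41 under ANX (adjusted p = 0.0106, 0.00633 and 0.014). One of Ocln rose by 1.54 under ANX and 1.21 under LIF (adjusted p = 0.00382 and 0.0332), and one of Crb3 by 2.18 under ANX and 1.69 under LIF (adjusted p = 0.00285 and 0.0289). One of Jam2, an adhesion protein of tight junctions, was lower than in uninduced culture by a log2 difference of -0.62 (adjusted p = 0.00757) for LIF and -0.52 (adjusted p = 0.0253) for ANX. On days 3 to 7 it was lower under LIF than under NGAL with -0.49 (adjusted p = 0.00139) and higher under NGAL than under ANX with 0.71 (adjusted p = 5.38e-05). One of Nectin2 was lower late under LIF with -0.51 (adjusted p = 0.0499). Between NGAL and ANX on days 3 to 7, one of Gja1 was lower under NGAL with -1.84 (adjusted p = 0.0212) and one of Pkp4, a plakophilin, with -0.39 (adjusted p = 0.0146).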

How the data were processed

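Total RNA of 42 samples in 21 groups of 2 labelled biological replicates was hybridised to Affymetrix whole-genome rat arrays. Per the submitters' processing notes the values were made with RMA (version not given in the sources used here), and the deposited values are linear intensities (7.6 to 17972), to which log2 was applied here. No further normalization was done. Of 31099 probe sets 20832 named 1 gene, 436 named several and 9831 were unnamed here, so 14218 genes were read, each from the single-gene probe set with the highest mean, and probe sets naming several genes were left out. Genes with at least 1 group mean over log2 5.787, the level that 40% of all values fall under, were tested (11388 genes). One limma model (limma 3.58.1, R 4.3.3; tables with Python 3.11.15 and pandas 2.3.3) gave each group a mean, with a variance trend, moderated tests and Benjamini-Hochberg adjustment over all tested genes. Files give no probe-level depth, so the number of arrays limits the precision. Nothing states that replicates came from separate litters, and p-values measure the spread between these samples.

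Members and lists were chosen with earlier results of these data known. Named per comparison were the 6 largest called rises and the 6 largest called falls, plus fixed anchor genes, and other genes were named after their values were seen. Alternatives changed the filter, the normalization, the probe set rule, the replicate block, a dap 3'/5' covariate, the days compared and, each in turn, the arrays kept. The fit was tested on simulated data. Promoter sequences are from RefSeq (GRCr8).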

Additional observations from a re-analysis of the deposited data

How the results depend on the processing

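No named change reversed. Of 78 named changes, 41 kept their call under all settings and 37 lost it under at least 1. The alternatives not given below left each count of called members within 1.5 times its value.

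Comparing single days gave 6 called members for LIF against uninduced culture on day 1 and 6 on day 2, in place of 14, and for ANX 3 and 4, in place of 10. Day 7 against day 1 under LIF gave 10, in place of 6. Asking in addition for a 2-fold change, chosen after seeing the data, gave 1 for uninduced day 2 against fresh tissue, 8 for LIF and 5 for ANX against uninduced culture, 3 for LIF and 9 for ANX late against early, 3 and 6 for LIF against NGAL on days 1 and 2 and on days 3 to 7, and 1 and 5 for NGAL against ANX. Testing without a filter gave 2 for uninduced day 2 against fresh tissue, in place of 4, as did the dap covariate. The stricter filter tests fewer genes and gave 11 for ANX late against early, in place of 18, and 1 for NGAL against ANX on days 1 and 2, in place of 2, as did the mean of probe sets. The dap covariate gave 1 for LIF against ANX on days 3 to 7 and 1 for the change by inducer, in place of 0. Unless the construction is named, the cause was not tested.

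Replicate numbers were not treated as pairing the samples: over 210 pairs of groups the correlation of the replicate difference ran from -0.646 to 0.742, with 88 above 0.1, and among 24 pairs of the same day 10 were above 0.1, on no day all of them. With the replicate number as a block the counts were 4 and 4 for uninduced days 1 and 2 against fresh tissue, 18, 0 and 12 for LIF, NGAL and ANX against uninduced culture, 9, 15 and 18 for LIF, NGAL and ANX late against early, 5 and 22 for LIF against NGAL, 0 and 1 for LIF against ANX, 2 and 16 for NGAL against ANX (days 1 and 2, then days 3 to 7) and 1 for the change by inducer. With a replicate block within each day, chosen after seeing the data, counts were 7 for uninduced day 2 against fresh tissue, 14 for LIF late against early and 1 for the change by inducer, and the other counts stayed within 1.5 times.

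With each array left out in turn, counts ran from 2 to 3 for uninduced day 1 and 2 to 3 for uninduced day 2 against fresh tissue, 8 to 15 for LIF, 0 to 0 for NGAL and 4 to 11 for ANX against uninduced culture, 4 to 11, 9 to 12 and 13 to 17 for LIF, NGAL and ANX late against early, 1 to 3 and 11 to 20 for LIF against NGAL, 0 to 0 and 0 to 7 for LIF against ANX, 0 to 2 and 13 to 20 for NGAL against ANX, and 0 to 4 for the change by inducer. The arrays that moved a count by over 1.5 times were fresh replicate 2 and uninduced day 2 replicate 1 (2 for uninduced day 2), uninduced day 1 replicate 1, uninduced day 2 replicate 2 and LIF day 2 replicate 1 (8 for LIF against uninduced culture), and uninduced day 1 replicate 1, uninduced day 2 replicate 2 and ANX day 2 replicate 2 (4, 5 and 6 for ANX). LIF day 7 replicate 1 gave 11 for LIF late, each of the 8 arrays gave 1 to 3 for LIF against NGAL on days 1 and 2, and LIF day 3 replicate 1, LIF day 4 replicate 1 and NGAL day 3 replicate 1 gave 11, 11 and 12 on days 3 to 7. For LIF against ANX on days 3 to 7, LIF day 7 replicate 2 gave 7, and LIF day 4 replicate 2, ANX day 3 replicate 1, ANX day 5 replicate 1 and ANX day 7 replicate 2 gave 1 each. For NGAL against ANX on days 1 and 2, NGAL day 2 replicate 1, ANX day 1 replicate 1 and ANX day 2 replicate 2 gave 0, and NGAL day 1 replicate 1, NGAL day 2 replicate 2 and ANX day 2 replicate 1 gave 1. For the change by inducer, LIF day 7 replicate 2 gave 4, NGAL day 7 replicates 2 and 1 gave 3 and 2, and LIF day 1 replicate 2, NGAL day 5 replicate 1 and ANX day 5 replicate 1 gave 1 each. A group left with 1 array is assumed to vary like the others.

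The limits are 2 arrays per group, the lack of uninduced cultures after day 2, and low signal. Dsc2, Dsg2, Cldn4, Krt19, Krt23 and Pkp2 lay below the threshold in at least 1 of the groups compared. So did others, among them Ppl, Krt15, Krt18, Krt8, Crb3 and Cgn. The changes of all these genes are uncertain in size.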
